A study of Arabidopsis thaliana with 19 samples.

Results

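The nuclear photosynthesis genes described here are 44 genes of Arabidopsis thaliana, named by AGI code, that encode the light-harvesting antenna of photosystem I (LHCA, 4 genes), the antenna of photosystem II (LHCB, 12), the nuclear subunits of photosystem I (PSA, 12) and of photosystem II (PSB, 10), the small subunit of Rubisco (RBCS, 4) and plastocyanin (PETE, 2). They were chosen by gene identity, with earlier results of these data known. Of the 44 genes, 33 had a row in the table of 21313 genes: 3 LHCA, 6 LHCB, 12 PSA, 10 PSB and 2 PETE. The other 11, LHCA2, LHCB1.1, LHCB1.3, LHCB1.4, LHCB1.5, LHCB2.1, LHCB2.2, RBCS1A, RBCS1B, RBCS2B and RBCS3B, were not analysed here, so no Rubisco subunit is described.

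RNA of whole, freshly harvested dormant seeds was hybridized to 19 ATH1 GeneChips, 1 array per seed sample. By the study's methods all seeds had been imbibed for 24 h in continuous light. There were 5 arrays of the wild type Landsberg erecta (Ler), 5 of NILDOG1, and 3 each of NILDOG2, NILDOG3 and NILDOG6. Each NIL is a near isogenic line, which is Ler except for introgressed DNA that includes a DELAY OF GERMINATION (DOG) locus. This DNA comes from the accession Cvi in NILDOG1, NILDOG2 and NILDOG3 and from Kas-2 in NILDOG6. The study speaks of introgressed regions, and its text does not say how many each line carries. A difference of a NIL from Ler therefore belongs to all the introgressed DNA of that line and not to a single gene. Plants were grown in randomized complete blocks and seeds of 8 plants were bulked for each sample, but the sources do not say whether an array's replicate number is its block. The study treats NILDOG2 as the less dormant line and the other NILs as more dormant than Ler. The extraction text in the labels speaks of dry seeds, whereas the titles, the treatment text and the study's methods give imbibed seeds.

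In green tissue the antenna proteins bind chlorophyll and pass excitation energy to the reaction centres. Photosystem II splits water, plastocyanin carries electrons to photosystem I, and Rubisco fixes carbon dioxide. Many of these nuclear genes are held low in the dark and in dry seeds and are induced by light through phytochrome and cryptochrome signalling as the seedling turns green. Abscisic acid, the hormone that maintains seed dormancy, is known to repress several of them.

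All values are on the log2 scale after robust multi-array averaging (RMA) and ran from 1.92 to 14.61 over the table. Between arrays of the same genotype Pearson's r across genes lay between 0.978 and 0.993 over 29 pairs, and no pair of arrays was a duplicate (the closest pair differed by a median of 0.170 per gene). The array labelled NILDOG6 replicate 1 stood apart from its group, with r = 0.980 and 0.978 with NILDOG6 replicates 2 and 3, which had r = 0.988 with each other. Its median r was 0.988 with the Ler arrays and 0.989 with the NILDOG2 arrays. The main NILDOG6 results are given with and without it. Of the 33 genes, 28 had a mean above the 30th percentile of all genes (3.36), which 70.0% of all genes exceed by construction, and PSAL, PSAN, PSAO, PSBQ2 and PETE1 lay below it, where RMA values respond little to transcript amount. All 15 seed maturation markers had means above that level. In whole seeds, fewer cells of a type and less RNA per cell cannot be told apart.

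Most of the nuclear photosynthesis genes were not called between the 5 genotypes. A missing call does not show equal levels. Beside the 5 genes below the 30th percentile, many of the others had means under 4.63, the lowest median of any array. The genes called in at least 1 comparison of genotypes were PSBX, PSBS, PSBR and LHCB4.2. PSBX was lower in NILDOG3 than in Ler by 1.80 on the log2 scale. PSBS and PSBR were lower in NILDOG2 than in NILDOG1 and NILDOG3, and LHCB4.2 was lower in NILDOG2 than in NILDOG1. A gene was called when its limma p-value, adjusted over all 21313 genes by Benjamini and Hochberg's method, was under 0.05. In the moderated F test across the 5 genotypes 3 of the 33 genes (9.09%) were called, PSBS (adjusted p = 0.0291), PSBX (0.0394) and PSBR (0.0395), against 6.39% of all genes. The other 30 had limma adjusted p-values from 0.101 to 0.948 in that test. The count of 3 fell to 0 when any of the NILDOG2 arrays or NILDOG3 replicate 3 was left out, and to 1 without Ler replicate 3, Ler replicate 5 or NILDOG3 replicate 2.

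Each NIL was then compared with Ler, which asks what the introgressed DNA of each line does to the dormant seed's transcripts. These 4 comparisons share the Ler arrays. In NILDOG1 none of the 33 genes was called by limma (3 at an unadjusted p under 0.05), where 1.17% of all genes were called. In NILDOG2 none was called either (6 at an unadjusted p under 0.05), where 0.305% of all genes were called. In NILDOG3, 1 gene, PSBX, was called and it was lower (7 at an unadjusted p under 0.05). There, 2.88% of all genes were called, 2.2% as lower. In NILDOG6 none was called (1 at an unadjusted p under 0.05), where 2.36% of all genes were called. Without the array labelled NILDOG6 replicate 1, PSBX alone was called in NILDOG6, as lower, while the share of all genes called rose to 8.39% (5.34% as lower).

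The median difference over the 33 genes was 0.13 on the log2 scale in NILDOG1 minus Ler, beside 0.02 for all genes, and 23 of the genes were higher and 10 lower. It was -0.07 in NILDOG2 (all genes -0.00328), with 12 higher and 21 lower. In NILDOG3 it was 0.07 (all genes 0.01), with 20 higher and 13 lower. In NILDOG6 it was -0.02 (all genes 0.01), with 15 higher and 18 lower, and 0.05 without the array labelled replicate 1. None of these medians was tested. Centring each array on its median shifted the median of all genes by 0.12 in NILDOG3 and 0.11 in NILDOG6, and the median of the 33 genes became 0.20 and 0.09, so the sign of the NILDOG6 median turns with the scaling. The size of the differences regardless of sign had a median of 0.15 in NILDOG1, 0.16 in NILDOG2, 0.20 in NILDOG3 and 0.13 in NILDOG6, beside 0.11, 0.11, 0.15 and 0.16 for all genes. The plot of the differences shows PSBX apart from the other genes in NILDOG3, and PSBS and PSBR in NILDOG2.

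**Figure D1:**
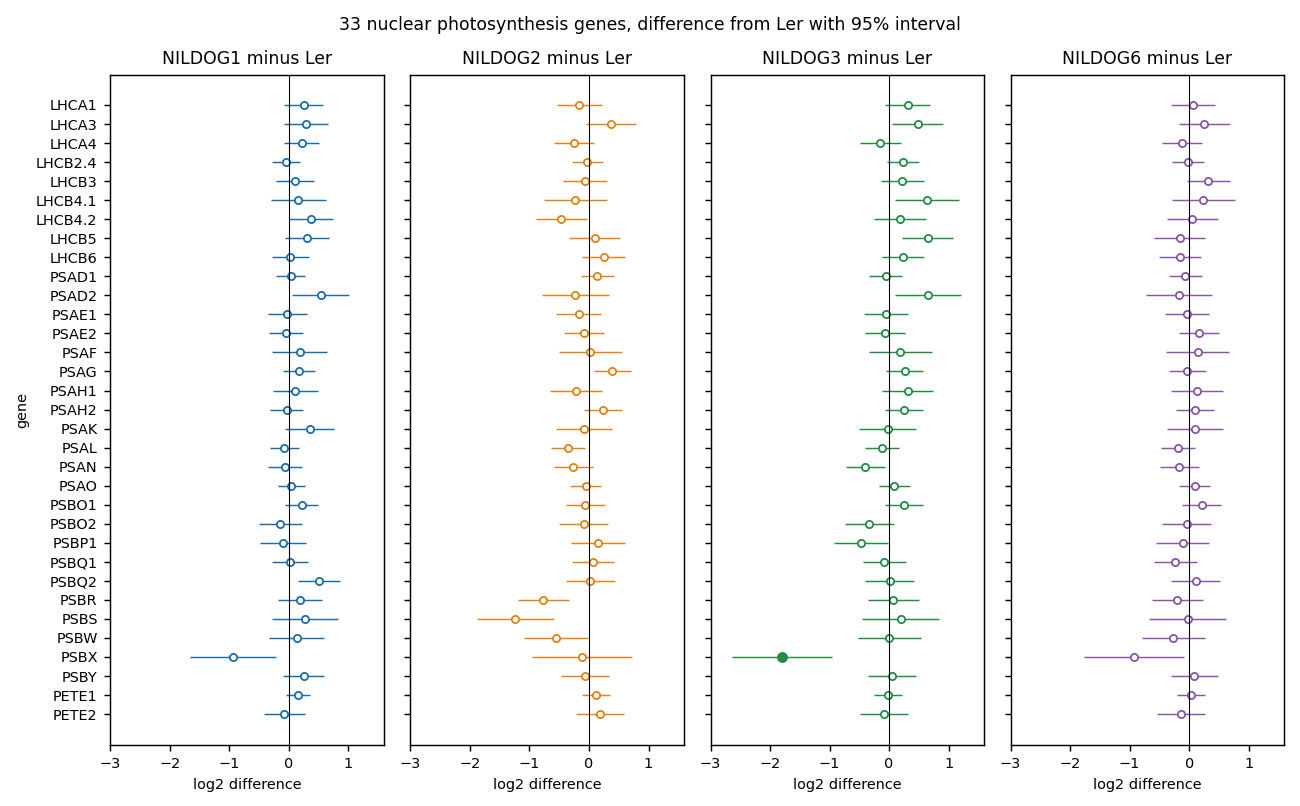
Log2 difference from Ler (x axis) of each of the 33 photosynthesis genes (y axis) in the 4 NILs, with 95% confidence intervals from the limma fit; filled points are called at a limma adjusted p under 0.05. PSBX in NILDOG3, at -1.80, is the only filled point.

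The precision differed between the genes. The 95% interval of a difference reached 0.20 to 0.73 either side (median 0.34) on the log2 scale in NILDOG1 minus Ler and 0.23 to 0.84 (median 0.40) in the other 3 comparisons with Ler. The pooled standard deviation within genotypes had a median of 0.279 over the 33 genes and 0.217 over all genes. It was lowest for PETE1 (0.126) and highest for PSBX (0.636), the same gene that carried the call in NILDOG3.

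Taken per array, the median deviation of the 33 genes from their Ler means was -0.18, 0.11, 0.02, -0.10 and 0.08 in Ler replicates 1 to 5, and 0.03, 0.29, 0.08, 0.18 and 0.03 in NILDOG1 replicates 1 to 5. It was -0.06, -0.18 and -0.09 in NILDOG2 and 0.05, 0.09 and 0.16 in NILDOG3. In NILDOG6 it was -0.03, 0.02 and 0.07, the first being the array labelled replicate 1. All 3 NILDOG2 arrays lay below all NILDOG1 and NILDOG3 arrays. The Ler arrays overlapped those of every NIL, and NILDOG1 replicates 2 and 4 and NILDOG3 replicate 3 lay above every Ler array.

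**Figure D2:**
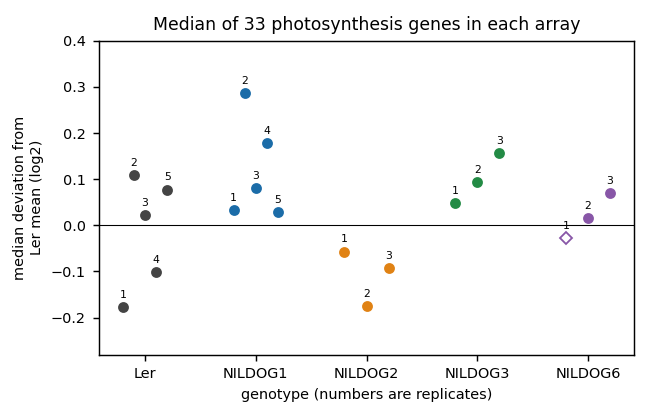
Median deviation of the 33 photosynthesis genes from their Ler means (y axis, log2) in each of the 19 arrays, by genotype (x axis), with replicate numbers beside the points; the open diamond is the array labelled NILDOG6 replicate 1. The NILDOG2 arrays lie between -0.18 and -0.06 and the Ler arrays between -0.18 and 0.11.

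The LHCA proteins form the antenna bound to photosystem I, and none of the 3 measured genes was called in any comparison. LHCA1 (AT3G54890) had values of 4.36, 4.39, 4.63, 3.81 and 4.67 in Ler, 4.72, 4.65, 4.77, 4.3 and 4.65 in NILDOG1, 4.32, 4.35 and 3.96 in NILDOG2, 4.51, 4.91 and 4.62 in NILDOG3, and 4.49, 4.17 and 4.67 in NILDOG6. LHCA3 (AT1G61520) had 3.3, 3.41, 3.23, 2.89 and 3.21 in Ler, 3.61, 3.61, 3.56, 3.2 and 3.50 in NILDOG1, 4.2, 3.17 and 3.37 in NILDOG2, 3.49, 3.61 and 3.95 in NILDOG3, and 3.42, 3.12 and 3.86 in NILDOG6. For LHCA3 the NILDOG3 arrays all lay above the Ler arrays, whereas the LHCA1 groups overlapped. LHCA4 (AT3G47470), whose product pairs with LHCA1, had 4.82, 4.93, 5.01, 4.68 and 4.60 in Ler, 5.09, 5.14, 5.24, 4.87 and 4.76 in NILDOG1, 4.47, 4.55 and 4.64 in NILDOG2, 4.59, 4.93 and 4.46 in NILDOG3, and 4.23, 4.99 and 4.84 in NILDOG6. Its NILDOG2 arrays all lay below its NILDOG1 arrays and overlapped the Ler arrays. All 3 LHCA genes had higher means in NILDOG1 than in Ler, by 0.21 to 0.29 on the log2 scale, and in the F test their limma adjusted p-values were 0.354 (LHCA1), 0.444 (LHCA3) and 0.269 (LHCA4).

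The LHCB genes encode the antenna of photosystem II. LHCB2.4 (LHCB2.3 in RefSeq) and LHCB3 belong to its major trimers, and LHCB4.1, LHCB4.2, LHCB5 and LHCB6 are the minor antenna proteins that link the trimers to the core. In NILDOG3 all 6 measured LHCB genes had higher means than in Ler, by 0.19 to 0.65 on the log2 scale, but none passed the test (2 at an unadjusted p under 0.05). In NILDOG2, 4 of the 6 had lower means, between -0.46 and 0.24.

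LHCB5 (AT4G10340) had the largest of these differences, with values of 4.49, 4.70, 5.12, 4.49 and 4.80 in Ler and 5.32, 5.44 and 5.34 in NILDOG3. It had 4.68, 5.36, 5.11, 4.97 and 5.00 in NILDOG1, 4.96, 4.51 and 4.98 in NILDOG2, and 3.92, 4.88 and 4.89 in NILDOG6. The NILDOG3 arrays all lay above the Ler arrays, and in NILDOG6 the low value belonged to the array labelled replicate 1. The mean difference of 0.65 (95% interval 0.22 to 1.07) between NILDOG3 and Ler had a limma adjusted p of 0.0925. Without the array labelled NILDOG6 replicate 1, whose spread enters the common estimate, LHCB5 was also called in NILDOG3.

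LHCB4.1 (AT5G01530) had values of 7.70, 8.93, 8.57, 7.51 and 8.80 in Ler, 8.25, 8.74, 8.39, 8.75 and 8.17 in NILDOG1, 8.03, 7.91 and 8.28 in NILDOG2, 8.81, 9.09 and 8.92 in NILDOG3, and 8.42, 8.63 and 8.58 in NILDOG6. Its Ler arrays fell apart, with replicates 1 and 4 low and the other 3 high, and the wide Ler range overlapped every NIL. LHCB4.2 (AT3G08940) had 3.57, 4.2, 4.12, 3.59 and 4.2 in Ler, 4.09, 4.37, 4.85, 4.43 and 3.78 in NILDOG1, 3.45, 3.31 and 3.66 in NILDOG2, 4.03, 3.87 and 4.47 in NILDOG3, and 4.02, 3.93 and 4.01 in NILDOG6. Here too Ler replicates 1 and 4 were low, and the NILDOG2 arrays lay below every array of the other NILs. LHCB4.2 was not called against Ler in any NIL.

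The PSA genes encode the nuclear subunits of photosystem I, and none of the 12 was called in any comparison with Ler. Their differences from Ler lay between -0.08 and 0.53 in NILDOG1, between -0.35 and 0.39 in NILDOG2, between -0.40 and 0.66 in NILDOG3 and between -0.19 and 0.16 in NILDOG6, all on the log2 scale. As many of them were higher as lower in NILDOG3 and in NILDOG6 (6 and 6), and in NILDOG2 4 were higher and 8 lower.

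PSAD2 (AT1G03130), whose product forms the docking site of ferredoxin on the stromal side, had the smallest p of the family in the F test (limma adjusted p = 0.101). Its values were 4.57, 5.64, 4.24, 4.96 and 4.56 in Ler, 5.32, 5.04, 5.81, 5.39 and 5.08 in NILDOG1, 4.93, 4.28 and 4.49 in NILDOG2, 5.34, 5.62 and 5.39 in NILDOG3, and 4.00, 4.87 and 4.99 in NILDOG6. All NILDOG1 and NILDOG3 arrays lay above all NILDOG2 and NILDOG6 arrays, and Ler replicate 2 stood above the other 4 Ler arrays. Its mean was higher than in Ler by 0.53 (95% interval 0.05 to 1.02) in NILDOG1 and by 0.66 (0.10 to 1.21) in NILDOG3, with limma adjusted p-values of 0.398 and 0.205. Without Ler replicate 2, PSAD2 was called in NILDOG3.

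PSAG (AT1G55670), a subunit at the antenna side of the core, had 3.12, 3.29, 3.11, 3.54 and 3.45 in Ler, 3.16, 3.62, 3.29, 3.73 and 3.56 in NILDOG1, 3.98, 3.70 and 3.40 in NILDOG2, 3.57, 3.56 and 3.58 in NILDOG3, and 3.22, 3.38 and 3.21 in NILDOG6. PSAN (AT5G64040), a lumenal subunit near the plastocyanin site, had 3.46, 2.94, 3.13, 2.82 and 3.19 in Ler, 2.85, 3.51, 2.99, 3.13 and 2.74 in NILDOG1, 2.82, 2.92 and 2.78 in NILDOG2, 2.58, 2.77 and 2.76 in NILDOG3, and 2.90, 3.05 and 2.87 in NILDOG6. The NILDOG3 arrays of PSAG lay above all Ler arrays and those of PSAN below them, and in both cases the gap between the groups was smaller than the spread among the Ler arrays.

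The PSB genes encode nuclear subunits of photosystem II and held the 3 genes called in the F test. PSBX (AT2G06520) encodes a small membrane-spanning subunit of the core. Its values were 7.54, 5.68, 6.83, 7.30 and 7.04 in Ler and 5.13, 4.56 and 5.55 in NILDOG3. They were 5.28, 6.23, 5.36, 6.71 and 6.12 in NILDOG1, 6.55, 7.18 and 6.55 in NILDOG2, and 6.88, 5.36 and 5.60 in NILDOG6. All NILDOG3 arrays lay below all Ler arrays, although Ler replicate 2 came close to them, and the array labelled NILDOG6 replicate 1 stood with Ler while NILDOG6 replicates 2 and 3 were low.

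The mean of PSBX was 6.88 ± 0.72 (SD, n = 5) in Ler and 5.08 ± 0.50 (SD, n = 3) in NILDOG3, a difference of -1.80 (SE 0.40, 95% interval -2.64 to -0.96), or 3.47-fold lower, with a limma adjusted p of 0.0192. In NILDOG1 the difference was -0.94 (-1.66 to -0.21; adjusted p = 0.279), in NILDOG6 -0.93 (-1.77 to -0.09; adjusted p = 0.215) and in NILDOG2 -0.12 (-0.96 to 0.72), none of them called by limma. Without the array labelled NILDOG6 replicate 1 the NILDOG6 difference was -1.40 and was called (adjusted p = 0.0430). The call in NILDOG3 was lost when Ler replicate 1, Ler replicate 4, NILDOG3 replicate 1 or NILDOG3 replicate 2 was left out, with limma adjusted p-values between 0.0501 and 0.152. Without Ler replicate 2, PSBX was also called in NILDOG1, at -1.24 (limma adjusted p = 0.0362).

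PSBS (AT1G44575, NPQ4 in RefSeq) encodes the sensor of lumen acidity that turns on the dissipation of excess light energy as heat. Its values were 6.61, 6.81, 6.85, 6.21 and 5.89 in Ler and 5.36, 5.06 and 5.28 in NILDOG2. They were 6.81, 6.13, 6.80, 6.98 and 7.0 in NILDOG1, 6.49, 6.67 and 6.84 in NILDOG3, and 5.31, 6.89 and 7.14 in NILDOG6. The NILDOG2 arrays lay below every array of the other genotypes except the array labelled NILDOG6 replicate 1, which fell among them.

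PSBS had a mean of 5.23 ± 0.15 (SD, n = 3) in NILDOG2 and 6.47 ± 0.41 (SD, n = 5) in Ler. The difference of -1.24 (SE 0.31, 95% interval -1.88 to -0.59) did not pass the test (limma adjusted p = 0.133). Without the array labelled NILDOG6 replicate 1 the same difference was called, with a limma adjusted p of 0.00549. That array has no part in the difference and enters only the common estimate of the spread. In NILDOG3 and NILDOG6 the PSBS difference from Ler was 0.20 and -0.02, and in NILDOG6 it was 0.55 without the array labelled replicate 1.

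PSBR (AT1G79040) encodes a subunit that helps to hold the oxygen-evolving proteins on photosystem II. It had values of 7.75, 8.13, 8.26, 7.88 and 8.10 in Ler, 7.95, 8.37, 8.51, 8.27 and 7.97 in NILDOG1, 7.28, 7.19 and 7.30 in NILDOG2, 7.54, 8.47 and 8.28 in NILDOG3, and 7.34, 7.98 and 8.16 in NILDOG6. As with PSBS, the NILDOG2 arrays were the lowest, and here they lay below every other array, with the array labelled NILDOG6 replicate 1 next above them. The difference between NILDOG2 and Ler was -0.77 (SE 0.20, 95% interval -1.19 to -0.34) and was not called (limma adjusted p = 0.174). With the replicate number as a block it was called, at -0.81 (limma adjusted p = 0.0219).

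The arrays of PSBR and PSBS in NILDOG2 did not overlap those of Ler, and 5.41% of all genes likewise did not overlap in that comparison. In NILDOG3 against Ler, LHCA3, LHCB5 and PSAG did not overlap on the higher side and PSAN and PSBX on the lower, beside 11% of all genes. No member was free of overlap with Ler in NILDOG1 or NILDOG6, where 2.14% and 8.09% of all genes were. The remaining PSB genes, which include the oxygen-evolving proteins PSBO1, PSBO2, PSBP1, PSBQ1 and PSBQ2 and the small membrane subunits PSBW and PSBY, were not called in any comparison.

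**Figure D3:**
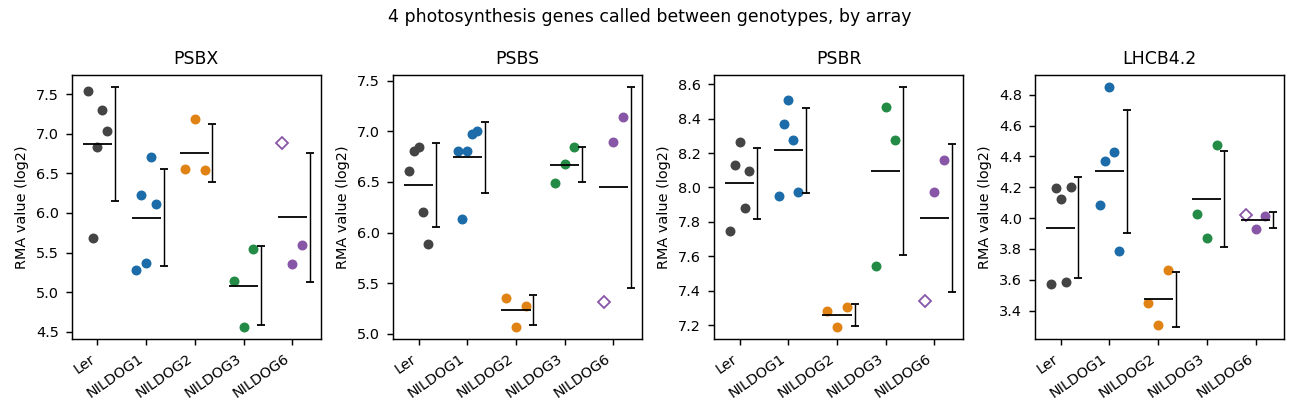
RMA values (y axis, log2) in each of the 19 arrays, by genotype (x axis), of the 4 photosynthesis genes called in at least 1 comparison; horizontal bars are genotype means, error bars are SD, and the open diamond is the array labelled NILDOG6 replicate 1. PSBX is lowest in NILDOG3 (mean 5.08), and PSBS and PSBR are lowest in NILDOG2 (means 5.23 and 7.26).

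Plastocyanin, the soluble copper protein between the cytochrome b6f complex and photosystem I, is encoded by PETE1 (AT1G76100) and PETE2 (AT1G20340, DRT112 in RefSeq). PETE1 had 2.56, 2.79, 2.81, 2.77 and 2.72 in Ler, 2.81, 2.79, 2.80, 3.17 and 2.82 in NILDOG1, 2.91, 2.88 and 2.78 in NILDOG2, 2.67, 2.82 and 2.66 in NILDOG3, and 2.63, 2.74 and 2.93 in NILDOG6. PETE2 had 3.47, 3.14, 3.52, 3.73 and 3.71 in Ler, 3.01, 3.95, 3.48, 3.46 and 3.25 in NILDOG1, 3.99, 3.69 and 3.42 in NILDOG2, 3.54, 3.35 and 3.39 in NILDOG3, and 3.58, 3.52 and 3.02 in NILDOG6. All groups overlapped Ler for both genes, and their F tests gave limma adjusted p-values of 0.699 and 0.762.

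NILDOG2, which the study describes as the less dormant line, was also compared with each of the other NILs, without the Ler arrays in the contrast. These 3 comparisons share the NILDOG2 arrays. Between NILDOG1 and NILDOG2, 3 of the 33 genes were called and all 3 were higher in NILDOG1, namely PSBS, PSBR and LHCB4.2 (8 at an unadjusted p under 0.05). In that comparison 2.56% of all genes were called, 1.15% as higher in NILDOG1. Between NILDOG3 and NILDOG2, PSBS and PSBR were called as higher and PSBX as lower in NILDOG3 (10 at an unadjusted p under 0.05), where 3.2% of all genes were called, 1.04% as higher and 2.17% as lower. Between NILDOG6 and NILDOG2 none was called by limma (5 at an unadjusted p under 0.05), where 1.66% of all genes were called, and PSBR and PSBS were called as higher in NILDOG6 once the array labelled NILDOG6 replicate 1 was left out, where 6.78% of all genes were called, 2.5% as higher.

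PSBS was higher in NILDOG1 than in NILDOG2 by 1.51 on the log2 scale (SE 0.31, 95% interval 0.86 to 2.16), or 2.85-fold, with a limma adjusted p of 0.00974. Against NILDOG3 the difference was 1.44 (0.71 to 2.16), or 2.71-fold, with a limma adjusted p of 0.0248. Against NILDOG6 it was 1.22 (0.49 to 1.94) and was not called (limma adjusted p = 0.0763). The call in NILDOG1 was lost only without NILDOG2 replicate 2 (limma adjusted p = 0.0844), and that in NILDOG3 was lost without any 1 of the 3 NILDOG2 or the 3 NILDOG3 arrays (limma adjusted p 0.0515 to 0.132).

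PSBR was 1.94-fold higher in NILDOG1 than in NILDOG2 (log2 difference 0.96, SE 0.20, limma adjusted p = 0.0125) and 1.79-fold higher in NILDOG3 than in NILDOG2 (0.84, SE 0.23, limma adjusted p = 0.0480). The former was lost without NILDOG2 replicate 1 or replicate 2 (limma adjusted p = 0.0516 and 0.0924), and the latter was lost in 13 of the 19 runs that each left out an array (limma adjusted p up to 0.272), being kept only without Ler replicate 1 or 2, NILDOG1 replicate 3, NILDOG3 replicate 1 or NILDOG6 replicate 1 or 3. LHCB4.2 was 1.78-fold higher in NILDOG1 than in NILDOG2 (log2 difference 0.83, SE 0.21, limma adjusted p = 0.0355), and this was lost without NILDOG1 replicate 2, 3 or 4 or any NILDOG2 array (limma adjusted p up to 0.224). PSBX was 3.21-fold lower in NILDOG3 than in NILDOG2 (log2 difference -1.68, SE 0.45, limma adjusted p = 0.0448), a call lost without Ler replicate 3 or 5, NILDOG1 replicate 2 or 5, or any NILDOG2 or NILDOG3 array (10 of the 19 runs, limma adjusted p up to 0.230).

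The median difference of the 33 genes from NILDOG2 was 0.18 on the log2 scale in NILDOG1 and 0.12 in both NILDOG3 and NILDOG6, beside 0.02, 0.02 and 0.01 for all genes, and 22 genes were higher and 11 lower in each. Between NILDOG1 and NILDOG2, 6 genes lay wholly higher (LHCA4, LHCB4.2, PSAD2, PSBR, PSBS and PSBW) and PSAH2 wholly lower, beside 11.3% of all genes without overlap. Between NILDOG3 and NILDOG2, 11 lay wholly higher and 2 wholly lower, beside 27.7%. Between NILDOG6 and NILDOG2 LHCB4.1, LHCB4.2 and PSBR lay wholly higher and PSAG wholly lower with all arrays, beside 18.9%. Overlap with NILDOG2 is not described without the array labelled NILDOG6 replicate 1.

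Ler and NILDOG1 each had replicates numbered 4 and 5 beside 1 to 3, and whether these were a separate batch is not stated. With genotype as a term, none of the 33 genes was called by limma between replicates 4 and 5 and replicates 1 to 3 (5 at an unadjusted p under 0.05), where 2.15% of all genes were called. The NILDOG1 difference from Ler for PSBX was -1.06 within replicates 1 to 3 and -0.75 within replicates 4 and 5. For PSBS it was -0.17 and 0.94, so its sign differed between the sets, and for PSBR it was 0.23 and 0.13.

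Further genes of photosynthesis, 85 in 6 lists of which 84 had a row, were examined beside the 33. In NILDOG1, 1 of the 84 was called, as lower, beside 0.807% of all genes called as lower. In NILDOG2, 1 was called as lower, beside 0.164% of all genes. In NILDOG3, 1 was called as higher and 2 as lower, beside 0.68% and 2.2% of all genes, and in NILDOG6, 2 were called as lower, beside 1.4%. With all arrays, the 19 Calvin cycle genes and the 23 genes of chlorophyll synthesis had no call against Ler by limma in any NIL (9 and 10 gene comparisons at an unadjusted p under 0.05). Without the array labelled NILDOG6 replicate 1, CP12-1 (Calvin cycle, -0.55, limma adjusted p = 0.0483) and CHLM (chlorophyll synthesis, -0.82, limma adjusted p = 0.0163) were called as lower in NILDOG6. There, 5.34% of all genes were called as lower. Among the 11 genes of electron transport and ATP synthase, all 11 had lower means in NILDOG2 than in Ler, by 0.06 to 0.56 on the log2 scale, and none was called there (3 at an unadjusted p under 0.05).

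PETM (AT2G26500), a small subunit of the cytochrome b6f complex, had values of 8.82, 6.61, 7.98, 8.09 and 7.77 in Ler and 6.21, 6.02 and 6.50 in NILDOG3. It had 7.03, 8.20, 6.96, 7.23 and 7.18 in NILDOG1, 7.25, 7.37 and 7.39 in NILDOG2, and 7.93, 6.06 and 5.98 in NILDOG6. Like PSBX, PETM was lowest among the Ler arrays in replicate 2 and highest among the NILDOG6 arrays in the array labelled replicate 1, and all NILDOG3 arrays lay below all Ler arrays. The NILDOG3 difference was -1.61 (SE 0.42, limma adjusted p = 0.0413). In NILDOG6 it was -1.20 (limma adjusted p = 0.122), and -1.83 and called (limma adjusted p = 0.00677) without the array labelled replicate 1.

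OHP1 (AT5G02120, OHP in RefSeq) encodes a single-helix relative of the antenna proteins that serves in the assembly of photosystem II. It had values of 6.53, 6.71, 6.72, 6.45 and 6.48 in Ler, 5.03, 5.60, 5.20, 5.49 and 5.18 in NILDOG1, and 5.95, 4.81 and 4.87 in NILDOG6. It had 5.70, 5.61 and 5.96 in NILDOG2 and 6.07, 6.3 and 6.77 in NILDOG3. Every NILDOG1, NILDOG2 and NILDOG6 array lay below every Ler array, whereas NILDOG3 overlapped Ler. The difference from Ler on the log2 scale was -1.28 (SE 0.19, limma adjusted p = 0.000667) in NILDOG1 and -1.37 (SE 0.21, limma adjusted p = 0.00553) in NILDOG6. Without the array labelled NILDOG6 replicate 1 the latter was -1.74 (limma adjusted p = 1.56e-05). In NILDOG2 the difference was -0.82 (limma adjusted p = 0.160).

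LHCA5 (AT1G45474), a minor antenna protein that joins photosystem I to the NDH complex, had values of 7.33, 7.40, 7.78, 7.60 and 7.35 in Ler and 6.74, 6.75 and 6.58 in NILDOG2. It had 7.24, 7.40, 7.41, 7.32 and 7.44 in NILDOG1, 7.47, 7.47 and 7.33 in NILDOG3, and 6.79, 7.24 and 7.35 in NILDOG6. The NILDOG2 arrays lay below all the others, with the array labelled NILDOG6 replicate 1 next above, the order also seen for PSBR. Its difference from Ler in NILDOG2 was -0.80 (SE 0.13, limma adjusted p = 0.00340), and it was higher in NILDOG1 and NILDOG3 than in NILDOG2 by 0.67 and 0.73 (limma adjusted p = 0.00660 and 0.00728).

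**Figure D4:**
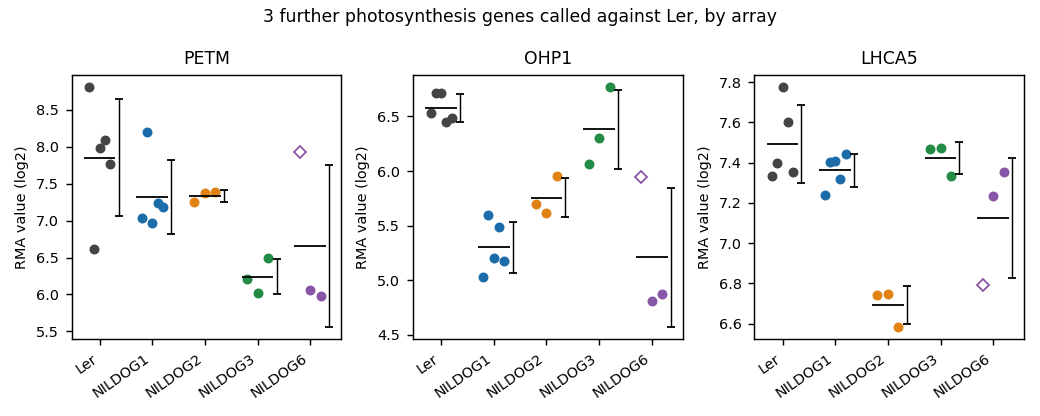
RMA values (y axis, log2) of PETM, OHP1 and LHCA5 in each of the 19 arrays, by genotype (x axis); horizontal bars are genotype means, error bars are SD, and the open diamond is the array labelled NILDOG6 replicate 1. PETM is lowest in the mean in NILDOG3 (6.24), OHP1 is lower in NILDOG1 (5.30) than in Ler (6.58), and LHCA5 is lowest in NILDOG2 (6.69).

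Among 19 regulators, ABI4 (AT2G40220), a transcription factor of abscisic acid signalling, was called as lower in NILDOG3 (log2 difference -0.98, SE 0.25, limma adjusted p = 0.0415) and in NILDOG6 (-1.13, SE 0.25, limma adjusted p = 0.0287). PIF3 (AT1G09530), a phytochrome-interacting factor that represses greening in the dark, was called as higher in NILDOG3 (0.61, SE 0.16, limma adjusted p = 0.0403). Without the array labelled NILDOG6 replicate 1, 9 of the 84 genes were called in NILDOG6 and all 9 were lower, among them PETM, OHP1 and ABI4, beside the 5.34% of all genes called as lower there. Against NILDOG2, 6 of the 84 genes were called in NILDOG1 (LHCA5, PSB27, PSB28, PGR5, FD2 and SIG5, beside 1.15% of all genes called as higher), 3 in NILDOG3 (LHCA5, PIF3 and OHP2, beside 1.04%) and 1 in NILDOG6 (HEMF1, beside 0.666% of all genes called as higher), each of them lower in NILDOG2.

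Markers of other tissues were set beside these genes. Of 3 endosperm markers, EXPA2, an expansin, was called as lower in NILDOG3 (log2 difference -2.88, SE 0.70, limma adjusted p = 0.0297), and EPR1 and MAN7 were not. There, 2.2% of all genes were called as lower. EPR1 was higher by 0.25 in NILDOG3 and by 0.35 in NILDOG6 (limma adjusted p = 0.442 and 0.223), and MAN7 differed by -0.85 and -0.52 (limma adjusted p = 0.235 and 0.472). EXPA2 had 9.24, 6.56, 7.73, 9.85 and 7.58 in Ler, 5.17, 5.66 and 5.10 in NILDOG3, and 7.92, 5.84 and 6.1 in NILDOG6. Like PSBX and PETM, it was lowest in replicate 2 among the Ler arrays and highest in the array labelled replicate 1 among the NILDOG6 arrays. MAN7 had 9.14, 7.29, 8.61, 9.44 and 8.48 in Ler, 7.85, 7.16 and 8.22 in NILDOG3, and 8.33, 7.85 and 8.03 in NILDOG6, with its lowest Ler and highest NILDOG6 values in those same arrays. EPR1 did not share this order, with 13.14, 13.19, 12.78, 13.03 and 13.46 in Ler and 13.14, 13.62 and 13.65 in NILDOG6. The log2 of the summed level of the 3 markers, most of which is EPR1, ran from 12.90 to 13.53 in Ler, 12.88 to 13.41 in NILDOG1, 13.25 to 13.40 in NILDOG2, 13.22 to 13.55 in NILDOG3 and 13.23 to 13.68 in NILDOG6. Their part in the PSBX result was not tested.

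Of 15 seed maturation markers, the 2 seed storage protein genes SESA2 and SESA4 were called as higher in NILDOG2 than in Ler. They differed by 1.14 and 1.58 (limma adjusted p = 0.0378 and 0.00340), beside 0.141% of all genes called as higher. Of the 15 markers, 10 had higher and 5 lower means in NILDOG2, with a median difference of 0.07. The log2 of their summed level ran from 17.09 to 17.19 in Ler and from 17.22 to 17.27 in NILDOG2. In NILDOG1 it ran from 17.15 to 17.29, in NILDOG3 from 17.19 to 17.21 and in NILDOG6 from 17.09 to 17.25. The part of these markers in the NILDOG2 values of PSBS, PSBR and LHCA5 was not tested. Without the array labelled NILDOG6 replicate 1, only EM1 of these markers was called in NILDOG6, as higher (0.64, limma adjusted p = 0.0441). Of 4 vegetative markers, MYB60, CER1 and FAMA lay below the 30th percentile of all genes and SUC2 above it. With all arrays none was called against Ler by limma (4 gene comparisons at an unadjusted p under 0.05). Without the array labelled NILDOG6 replicate 1, SUC2 was called as lower (-0.98, limma adjusted p = 0.0191) and FAMA as higher (0.56, limma adjusted p = 0.0475) in NILDOG6, where 8.39% of all genes were called. The log2 summed level of the 4 markers ran from 7.35 to 8.26 in Ler, 7.14 to 7.63 in NILDOG1, 7.46 to 8.02 in NILDOG2, 7.56 to 7.68 in NILDOG3 and 6.97 to 7.66 in NILDOG6.

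Since each NIL carries foreign DNA, the 100 genes on each side of PSBX, PETM, LHCA5 and OHP1 were examined for calls in the same comparison. The neighbours of ABI4 and PIF3 are not described in this way. Nor are those of PSBS, PSBR and LHCB4.2, which with all arrays were not called against Ler. PSBX, on chromosome 2, had 3 of 200 neighbours called in NILDOG3. PETM, on the same chromosome, had 4 of 200 in NILDOG3, and LHCA5, on chromosome 1, had 0 of 200 in NILDOG2. These shares were below the 2.88% (NILDOG3) and 0.305% (NILDOG2) of all genes called. PSBS and LHCA5 stand at places 2886 and 2917 in the gene order of chromosome 1, so PSBS is among the neighbours of LHCA5. OHP1, near an end of chromosome 5, had 18 of 190 neighbours called in NILDOG1, against 1.17% of all genes, and 4 of 190 in NILDOG6. Also in NILDOG1, CHLI2 elsewhere on chromosome 5 had 25 of 200 neighbours called, and CHLI1 on chromosome 4 had 11 of 200. Whether these stretches belong to separate fragments is not stated in the study's text. For a gene inside a fragment, a sequence difference under the probes and a difference in transcript amount cannot be told apart in these values. Of the 33 genes, LHCB4.1 had 13 called neighbours of 141 in NILDOG1 and LHCB2.4 had 10 of 200 in NILDOG6. In NILDOG3, PSAF had 20, PSAK 14, PSAE1 12 and PSAO 10 of 200. None of these 6 genes was itself called in the comparison concerned. PIF3 and PSAO stand at places 715 and 620 in the gene order of chromosome 1, so PIF3 is among the neighbours of PSAO. Whether a sequence difference under the probes has a part in the PIF3 call in NILDOG3 was not tested.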

How the data were processed

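RNA of 24 h imbibed dormant seeds was hybridized to ATH1 GeneChips. The deposited table held log2 expression, to which the authors had applied RMA (background correction, quantile normalization and 1 summary value per gene), as the submitters' processing notes and the study's methods give it. Rows are AGI codes, and the probe annotation and genome build are not given in the sources used here. After-ripened seeds were not analysed here.

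Genotype means were fitted to all 21313 genes with limma 3.58.1 in R 4.3.3 (lmFit, eBayes with a constant prior), with p-values adjusted over all genes by Benjamini and Hochberg's method and genes called at 0.05. The study's threshold of 1e-04 for dormant against after-ripened seeds was an alternative, as were a filter at the 30th percentile, centring, a trended prior, replicates 1 to 3 only, a replicate block and leaving out each array. The 44 genes and the further lists were chosen with earlier results of these data known.

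Values in every array are given for the 3 genes of each family with the smallest F test p, RBCS and PETE taken as a single family, and for the called gene with the largest difference from Ler. Of the other lists, genes called against Ler are named, at most 3 per list and comparison. EXPA2, SESA2, SESA4 and EM1, and the genes named against NILDOG2, were named because they were called. The 2 PETE genes were all that the last family held.

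Symbols and gene order were looked up in RefSeq (assembly TAIR10.1), in which 21205 rows (99.5%) and all 33 genes matched. The build of the arrays' annotation is not stated, so no coordinates are given. On simulated data with 200 of 21313 genes changed, the fit recovered 91% (NILDOG1), 84.5% (NILDOG2), 86.5% (NILDOG3) and 83% (NILDOG6) of log2 changes of 1 against Ler, and 98.5% to 100% of changes of 2. These shares do not give the recovery for the 33 genes, whose median pooled standard deviation was 0.279, against 0.217 over all genes. In NILDOG2, where 65 genes were called against Ler, the PSBS difference of -1.24 was not called. Precision is limited by how many arrays there are. The plants were grown in randomized complete blocks, whose link to the replicate numbers of the arrays is not given in the sources used here, and p-values measure the spread between these bulks.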

Additional observations from a re-analysis of the deposited data

Results flagged for a closer look

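In groups of 5 arrays, the highest or lowest value was marked when its gap to the nearest other value exceeded 0.71 of the range of the group (Dixon's 95% limit). Over 66 groups examined, the 33 genes in Ler and in NILDOG1, chance marks about 1 in 20, or 3.3, and 7 were marked. In NILDOG1 replicate 4, LHCA1 was at 4.3 (the other arrays 4.65 to 4.77), LHCA3 at 3.2 (3.50 to 3.61) and PETE1 at 3.17 (2.79 to 2.82), the first 2 of these low and the last high. PSBS was low at 6.13 in NILDOG1 replicate 2 (6.80 to 7.0), and PSBO1 was high at 3.87 in NILDOG1 replicate 5 (3.39 to 3.49). In Ler, PSAD1 was low at 3.31 in replicate 2 (3.46 to 3.51) and PSAF was high at 4.34 in replicate 5 (3.81 to 3.91). Groups of 3 arrays were not examined in this way.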

How the results depend on the processing

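No called difference changed sign under the alternatives run. At an adjusted p under 0.0001 the counts of called genes fell to 0 for NILDOG3 versus Ler, NILDOG1 versus NILDOG2, NILDOG3 versus NILDOG2 and the F test, where 0.0704%, 0.188%, 0.136% and 0.296% of all genes were called. With replicates 1 to 3 only, 1 gene (PSBS, difference -1.52) was called in NILDOG2 versus Ler, 0 in NILDOG3 versus Ler (PSBX, -1.60) and 1 (PSBS) in the F test. Among genes above the 30th percentile the NILDOG3 median was 0.19, and after centring the NILDOG3 and NILDOG6 medians were 0.20 and 0.086. Whether replicate numbers mark the field blocks is not given in the sources used here, and the data left the pairing unsettled: over 14 same-numbered pairs the correlation of deviations ran from -0.30 to 0.37, 8 were over 0.1, and 6 of the arrays correlated best with their own number. With the replicate block, 1 gene (PSBR, -0.81, adjusted p = 0.0219) was called in NILDOG2 versus Ler, and LHCA4 (NILDOG1 versus NILDOG2) and LHCB4.2 (F test) joined the called genes, giving 4 in each. No other call of these genes changed with the block. Leaving out each array in turn, the number of called genes ranged from 0 to 1 in NILDOG1 (PSBX, without Ler replicate 2), 0 to 1 in NILDOG2 (PSBS, without NILDOG6 replicate 1), 0 to 2 in NILDOG3 (0 without Ler replicate 1 or 4 or NILDOG3 replicate 1 or 2, and 2 without Ler replicate 2 or NILDOG6 replicate 1) and 0 to 1 in NILDOG6 (PSBX, without its replicate 1). It ranged from 0 to 3 in NILDOG1 versus NILDOG2 (1 and 0 without NILDOG2 replicates 1 and 2), 0 to 4 in NILDOG3 versus NILDOG2 (0 without any NILDOG2 array or NILDOG3 replicate 2 or 3), 0 to 2 in NILDOG6 versus NILDOG2 and 0 to 4 in the F test, where it was 0 without any NILDOG2 array or without NILDOG3 replicate 3. The medians ranged from 0.06 to 0.17 (NILDOG1), -0.12 to -0.02 (NILDOG2), 0.00421 (without Ler replicate 1) to 0.13 (NILDOG3) and -0.086 to 0.045 (NILDOG6). The cause of these changes was not tested. Arrays were left out in turn for the 33 genes only, not for the further lists. With 3 arrays per NIL the unadjusted limma interval of a difference from Ler reached a median of 0.40 either side on the log2 scale. Calls after adjustment over all genes needed more than this. With all arrays, LHCB5 at 0.65 in NILDOG3 was not called against Ler. Nor were PSBR at -0.77 and PSBS at -1.24 in NILDOG2, whereas PSBX at -1.80 in NILDOG3 was.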
